A study of Homo sapiens with 24 samples.

Results

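The genes described here encode the switch that starts mitosis. They are 9 genes taken by name from the 36481 genes of the deposited table, namely the phosphatases CDC25A, CDC25B and CDC25C, the kinases WEE1 and PKMYT1, the kinase CDK1 and the cyclins CCNB1, CCNB2 and CCNA2. RNA was sequenced from Hs578T and SKBR7 cells, which are established triple-negative breast cancer (TNBC) cell lines, after 6 h in 1 of 4 treatments. These were the vehicle DMSO at 0.1%, lapatinib at 3.16 μM, PHA-767491 at 1 μM, and both drugs together at these doses (co-treatment). Lapatinib inhibits the kinase of EGFR and ERBB2. PHA-767491 inhibits cdc7, which triggers the firing of replication origins, and CDK9, which releases paused RNA polymerase II. Each of the 8 groups held 3 libraries, numbered I to III and called triplicates. The p-values below therefore concern these samples only. The test takes part, and in some fits nearly all, of each gene's spread from other genes. Each line is a model of its own and not a sample of patients.

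CDK1 bound to a B-type cyclin drives entry into mitosis, and CDK1 or CDK2 bound to cyclin A2 prepares for it. WEE1 in the nucleus and PKMYT1 at membranes hold CDK1 inactive by phosphorylating it next to its ATP-binding site, and CDC25 phosphatases remove these phosphates. CDK1 and the cyclins of late G2 are transcribed periodically, and their promoters typically carry CCAAT boxes bound by NF-Y and a cell cycle genes homology region (CHR) bound by the DREAM and MuvB complexes.

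Promoters are shown for the 6 members that were lower in co-treated Hs578T cells than with lapatinib and for CDC25A, which was not, so that they can be read beside each other. The sequences are from RefSeq on GRCh38.p14, run 5′ to 3′ on the gene's strand and reach from 130 bases before to 20 bases after an annotated start site. Capitals mark matches on either strand to the CCAAT box, to the CHR-type motifs TTTGAA and TTTAAA (the latter reads the same on both strands) and to the E2F-type motif TTTGGCGC. Other variants of the CHR were not searched for and are not marked. They lie at chr15:59105016-59105165 (plus strand) for CCNB2, chr5:69167020-69167169 (plus) for CCNB1, chr5:138331785-138331934 (minus) for CDC25C, chr10:60778348-60778497 (plus) for CDK1, chr4:121823864-121824013 (minus) for CCNA2, chr20:3796180-3796329 (plus) for 1 of the 4 starts of CDC25B and chr3:48188398-48188547 (minus) for CDC25A.
CCNB2: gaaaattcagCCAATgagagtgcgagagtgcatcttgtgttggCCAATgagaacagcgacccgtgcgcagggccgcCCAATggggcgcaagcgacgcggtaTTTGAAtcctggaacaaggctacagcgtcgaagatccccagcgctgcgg
CCNB1: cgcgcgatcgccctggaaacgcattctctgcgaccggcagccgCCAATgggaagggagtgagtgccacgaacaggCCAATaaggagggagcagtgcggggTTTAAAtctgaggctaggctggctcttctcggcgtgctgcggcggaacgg
CDC25C: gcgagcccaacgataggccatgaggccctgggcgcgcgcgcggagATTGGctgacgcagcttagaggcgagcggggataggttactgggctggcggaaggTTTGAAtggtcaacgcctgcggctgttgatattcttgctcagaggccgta
CDK1: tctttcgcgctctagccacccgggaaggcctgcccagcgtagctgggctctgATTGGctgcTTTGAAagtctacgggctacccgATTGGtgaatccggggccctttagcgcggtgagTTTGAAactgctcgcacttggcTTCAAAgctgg
CCNA2: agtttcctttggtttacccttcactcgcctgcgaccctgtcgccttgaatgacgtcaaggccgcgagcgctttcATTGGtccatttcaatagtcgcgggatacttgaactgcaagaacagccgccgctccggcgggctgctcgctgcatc
CDC25B: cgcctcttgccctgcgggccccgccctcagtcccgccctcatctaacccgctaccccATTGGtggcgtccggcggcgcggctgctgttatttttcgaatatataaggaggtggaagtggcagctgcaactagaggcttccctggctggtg
CDC25A: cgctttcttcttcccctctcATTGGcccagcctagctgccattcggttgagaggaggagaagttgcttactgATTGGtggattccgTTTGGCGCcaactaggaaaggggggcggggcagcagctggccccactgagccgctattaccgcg

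Counted from the first base of the match to the start site, CCNB2 had TTTGAA at -29 with CCAAT at -120, -87 and -54, and CCNB1 had TTTAAA at -30 with CCAAT at -87 and -55. CDC25C had TTTGAA at -30 with CCAAT at -85. CDK1 had CCAAT at -78 and -46, with TTTGAA at -69, -13 and 10. CDC25A had CCAAT at -110 and -58 and TTTGGCGC at -44, with neither TTTGAA nor TTTAAA. Windows of 300 bases were matched for 7 of the 9 members, 14 windows in all, and no matches overlapped. CCAAT together with TTTGAA or TTTAAA was found in 6 of the 14 windows (42.9%), which were 1 of CCNB1, 1 of CCNB2, 2 of CDC25C and 2 of CDK1, against 9.27% of all 35116 windows. The 2 windows of CDC25C overlap, as do those of CDK1. In all windows CCAAT alone was found in 34.6%, TTTGAA in 15.2%, TTTAAA in 12.2% and TTTGGCGC in 0.652%. CCNA2 had CCAAT at -56 and no other of these motifs, and CDC25B had CCAAT at -169 and -73 of 2 of its starts (the latter shown) and TTTAAA in the window of another. CDC25B and CCNA2 had the largest differences of the members in co-treated Hs578T cells. None of their windows held a CCAAT box together with a CHR-type motif of those searched for. Because other variants of the CHR were not searched for, whether these promoters lack a CHR was not tested. A match says only that these letters are there.

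**Figure D1:**
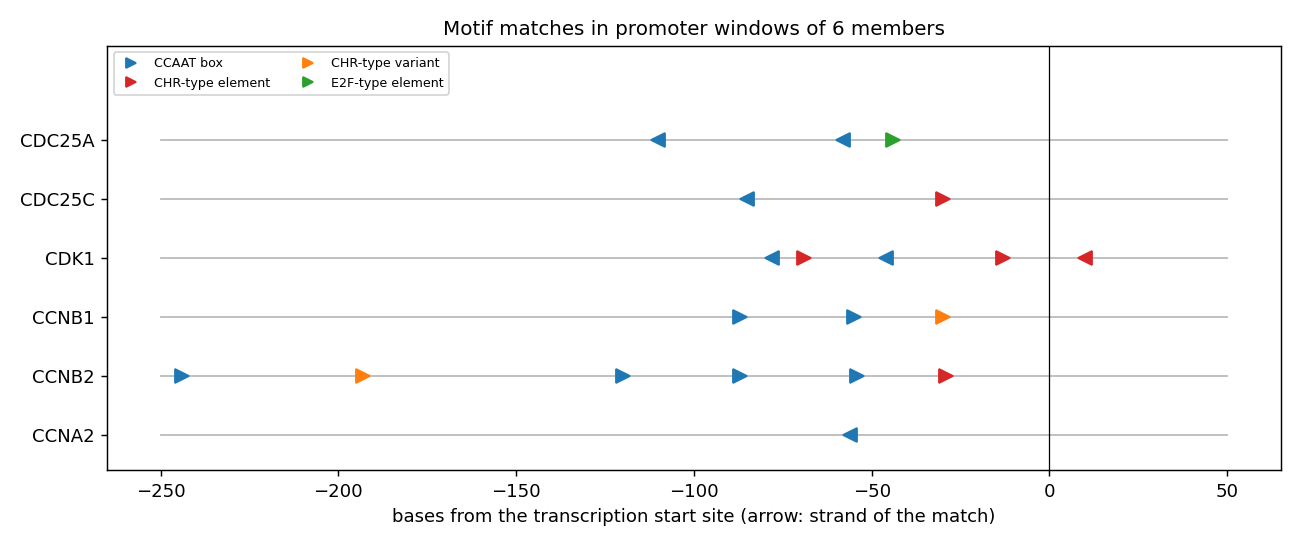
Positions of motif matches in promoter windows of 6 members, with 1 start site drawn for each. CDC25B is not drawn, and CDC25C and CDK1 have other annotated starts. The horizontal axis is the distance in bases from the annotated transcription start site, each row is 1 gene and arrows point along the strand of the match. CCNB1, CCNB2 and CDC25C hold a CHR-type match about 30 bases before the start, at -30, -29 and -30.

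All values are log2 values that the authors scaled and then quantile normalised, and a difference is a difference of group means on that scale. All 9 members were listed in all 24 libraries. The number of reads is not given, and depth is known only through the number of genes a library lists, which ran from 9967 to 23320. Quantile normalisation over the listed genes moves the genes that libraries share, and their median ran from 3.08 in Hs578T DMSO replicate I to 5.69. Libraries were taken as in doubt where they listed at most 18090 genes, with at least 20287 in all others, or many genes that mark the other line. They were Hs578T DMSO replicates I and II, Hs578T PHA-767491 replicates I and III, SKBR7 lapatinib replicate II and SKBR7 co-treatment replicate I. Of 795 genes listed by every SKBR7 library not in doubt and by at most 2 such Hs578T libraries, Hs578T DMSO replicate II listed 451 and PHA-767491 replicate III listed 714, against at most 103 in Hs578T libraries not in doubt. Whether these libraries hold RNA of SKBR7 cells was not tested. These 6 libraries are kept in the values below, and results that rest on them are also given without them. In the libraries not in doubt the lines kept their own markers. VIM was 11.9 to 12.2 in Hs578T and 8.87 to 9.53 in SKBR7, KRT8 was 3.80 to 5.08 and 10.8 to 11.4, and EGFR was listed in all of them. The highest value of ESR1 was 0.83 and that of PGR was -1.37, while ERBB2 was 5.21 to 6.54.

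Which mitotic entry genes did co-treatment move in Hs578T cells, against lapatinib alone? CDC25B, the phosphatase that starts CDK1 activation at the centrosome, had the largest difference of the 9, 2.92-fold lower. The cyclins CCNA2, CCNB2 and CCNB1 were lower by 1.80-, 1.79- and 1.66-fold, CDC25C by 1.58-fold and CDK1 by 1.35-fold. The inhibitory kinases moved the other way, WEE1 by 1.54-fold and PKMYT1 by 1.40-fold upwards. CDC25A, the phosphatase that acts on CDK2 in S phase as well as on CDK1, had a difference of -0.03 (SE 0.17). In limma with Benjamini-Hochberg adjustment over all genes tested in these 6 libraries, 6 members were lower and 2 higher, with the largest adjusted p of these at 0.000929 (PKMYT1), while CDC25A had 0.931. Of the 21814 genes tested, 11% were called lower and 18.3% higher, and the median difference of all genes was 0.18 against -0.66 for the members.

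The values by library show the size of these differences. CDC25B (ENSG00000101224.17, chromosome 20, 3786772 to 3806121, GRCh38) was 8.13, 8.06 and 8.18 with lapatinib and 6.62, 6.62 and 6.50 with co-treatment, a difference of -1.55 (SE 0.10). All 3 co-treated libraries lay far below the lapatinib ones. CCNA2 (chromosome 4, 121816444 to 121823933), the cyclin of S phase and G2, was 7.43, 7.51 and 7.65 with lapatinib and 6.68, 6.64 and 6.73 with co-treatment, a difference of -0.85 (SE 0.11). CCNB2 (chromosome 15, 59105078 to 59125045), a B-type cyclin of the Golgi, was 6.91, 6.59 and 6.87 against 5.98, 6.02 and 5.84, a difference of -0.84 (SE 0.12). For both cyclins the groups did not overlap. CCNB1 (chromosome 5, 69167010 to 69178245), the main partner of CDK1 in mitosis, was 8.98, 8.66 and 8.76 against 8.06, 8.15 and 8.01, a difference of -0.73 (SE 0.09). CDC25C (chromosome 5, 138285265 to 138338355) was 5.36, 5.25 and 5.34 against 4.57, 4.80 and 4.62, a difference of -0.66 (SE 0.17). CDK1 (chromosome 10, 60778331 to 60794852) was 7.76, 7.63 and 7.86 against 7.31, 7.32 and 7.31, a difference of -0.44 (SE 0.10). For CCNB1, CDC25C and CDK1 too every co-treated library was below every lapatinib library.

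WEE1 (chromosome 11, 9573681 to 9593457) was 5.78, 5.56 and 5.63 with lapatinib and 6.30, 6.27 and 6.28 with co-treatment, a difference of 0.62 (SE 0.13) with every co-treated library above. PKMYT1 (chromosome 16, 2968024 to 2980539) was 5.94, 5.48 and 6.19 against 6.48, 6.46 and 6.12, a difference of 0.48 (SE 0.13), and here the groups overlapped. CDC25A (chromosome 3, 48157146 to 48188402) was 4.84, 4.75 and 5.16 against 4.93, 5.00 and 4.74. In all, the libraries of 7 of the 9 members did not overlap, where 47.9% of the genes listed in all 6 libraries did not. Without Hs578T co-treatment replicate I or lapatinib replicate II, PKMYT1 had an adjusted p of 0.0525 or 0.0542. Without the variance trend of the fit CDC25B, CCNA2, CCNB1 and CCNB2 passed (adjusted p 0.0244, 0.0359, 0.0492 and 0.0429). The other 4 did not, PKMYT1 among them (SE 0.24, adjusted p 0.222). In a fit of all 12 Hs578T libraries no gene passed (CDC25B: adjusted p 0.502).

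**Figure D2:**
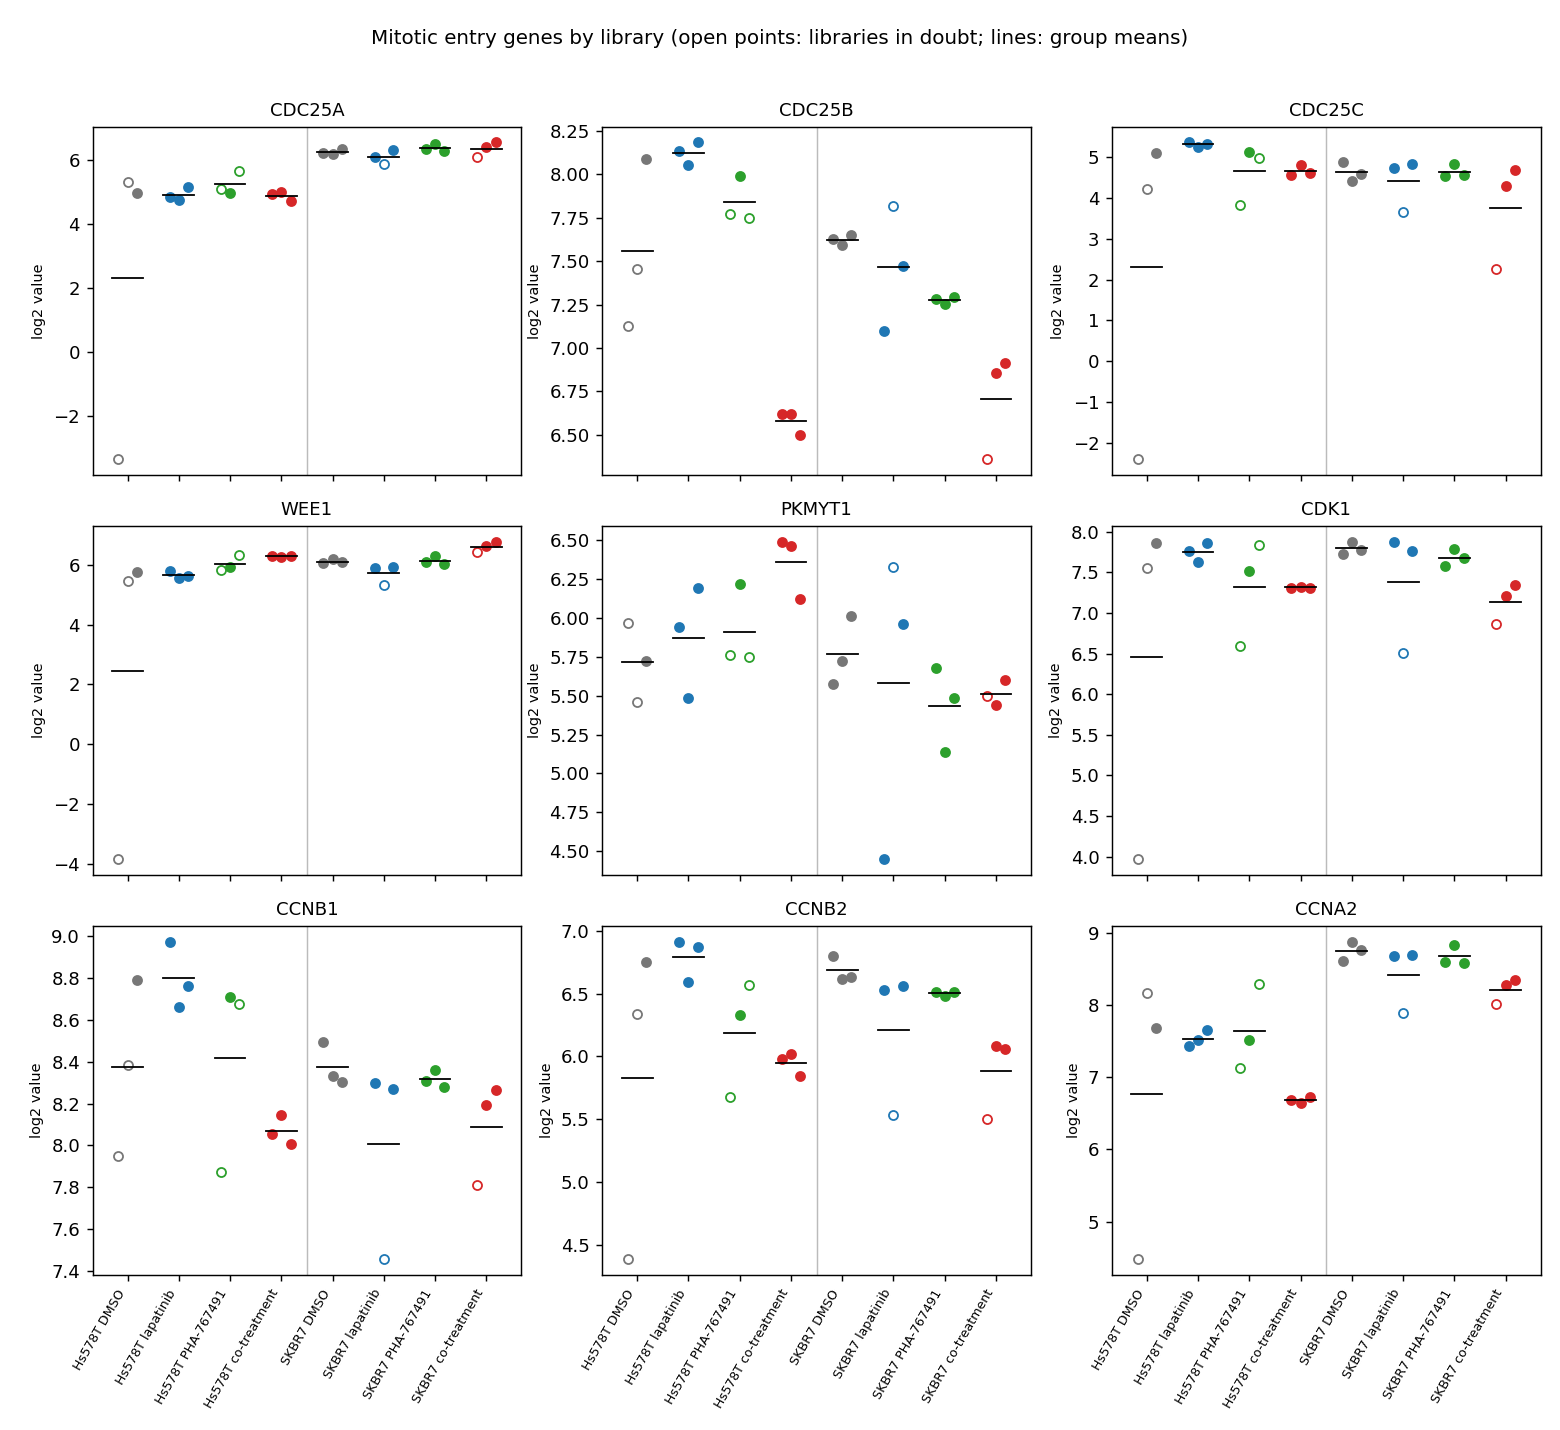
Log2 value (vertical axis) of each member in each of the 24 libraries, by group, with group means as lines and libraries in doubt as open points. In Hs578T co-treatment CDC25B sits at 6.50 to 6.62 and CCNA2 at 6.64 to 6.73, below every other Hs578T library except DMSO replicate I for CCNA2 (4.49), while WEE1 sits at 6.27 to 6.30.

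Against DMSO and against PHA-767491 alone, no gene passed in Hs578T with limma (0% of those tested), and DMSO replicate I stood far from the rest. CDC25B alone of the 9 had an unadjusted p under 0.05 in either comparison. In that library CDC25A was -3.34, CDC25C -2.41, WEE1 -3.85 and CDK1 3.97, where DMSO replicates II and III had 5.32 and 4.97, 4.21 and 5.11, 5.44 and 5.77, and 7.55 and 7.86. As deposited, WEE1 was therefore 3.83 (SE 1.81) higher in co-treatment than in DMSO and CDC25C 2.36 (SE 1.41) higher. CDC25B was -0.98 (SE 0.29) against DMSO (adjusted p = 0.189) and -1.26 (SE 0.29) against PHA-767491 (adjusted p = 0.801). Its DMSO values were 7.13, 7.46 and 8.09 and its PHA-767491 values 7.77, 7.99 and 7.75, all above co-treatment. CCNA2 was 7.12, 7.51 and 8.28 with PHA-767491, again all above co-treatment. Libraries did not overlap for 3 members against DMSO (42.7% of all genes) and for 2 against PHA-767491 (36.1%).

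When the 18 libraries not in doubt were quantile normalised anew over 12200 genes, the co-treated cells stood apart from all 3 comparators in Hs578T. With only 1 library left for DMSO and 1 for PHA-767491, their spread is taken from the other groups. Against DMSO, 6 members were lower (22.1% of all genes) and 2 higher (24.1%), against lapatinib 6 lower (27.7%) and 2 higher (31.8%), and against PHA-767491 5 lower (16.6%) and 1 higher (15%). CDC25B was -1.54, -1.59 and -1.41 against DMSO, lapatinib and PHA-767491, CCNA2 was -1.02, -0.89 and -0.82, and CCNB1 was -0.74, -0.77 and -0.63. CCNB2 was -0.83, -0.89 and -0.37 and CDC25C was -0.50, -0.73 and -0.46, each past the threshold. WEE1 was 0.48, 0.57 and 0.38 higher and passed against all 3. CDK1 and PKMYT1 passed against DMSO (-0.57 and 0.60) and lapatinib (-0.47 and 0.43) but not against PHA-767491 (-0.19, adjusted p = 0.144, and 0.16, adjusted p = 0.512). The 3 comparisons share the co-treated libraries. CDC25A stayed within 0.13 of 0 in all 3, with an adjusted p of at least 0.358.

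**Figure D3:**
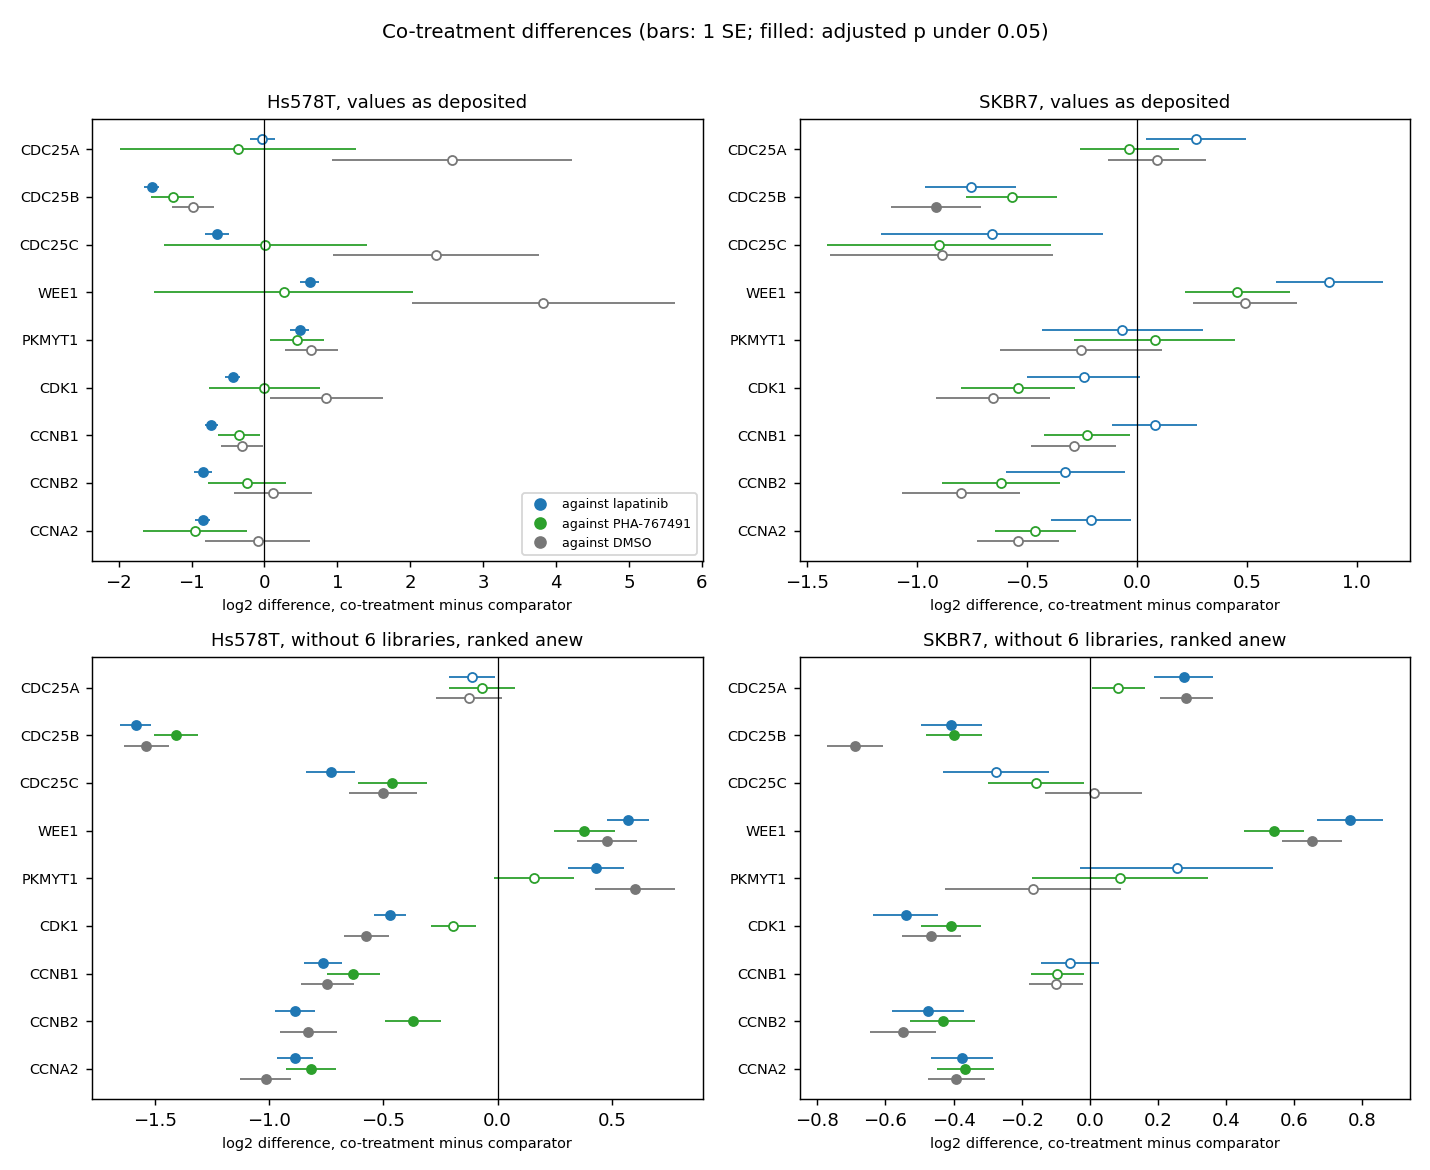
Log2 difference (horizontal axis) of co-treatment minus lapatinib, PHA-767491 or DMSO for each member, with 1 SE as bars and filled points where the adjusted p was under 0.05. Upper panels hold the values as deposited, lower panels the 18 libraries normalised anew. In the lower panels CDC25B, CCNA2 and CCNB2 are below 0 and WEE1 above 0 in all 6 comparisons.

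In SKBR7 cells CDC25B was the 1 member past the threshold, 1.88-fold lower in co-treatment than in DMSO. Its values were 7.63, 7.59 and 7.65 with DMSO, 7.10, 7.82 and 7.48 with lapatinib, 7.28, 7.26 and 7.30 with PHA-767491 and 6.36, 6.85 and 6.91 with co-treatment. Co-treated libraries were below every other SKBR7 library. The difference from DMSO was -0.91 (SE 0.20, adjusted p = 0.0256), that from lapatinib -0.76 (SE 0.21, adjusted p = 0.0849) and that from PHA-767491 -0.57 (SE 0.20, adjusted p = 0.292). Against DMSO 1 of 9 members was called lower, beside 1.7% of all genes, and none higher, beside 0.0911%. None was called against lapatinib (0.713% of all genes lower and 0.196% higher) or PHA-767491 (0.446% lower and 0.0184% higher), where 2 and 3 members had an unadjusted p under 0.05. The median difference of all genes was -0.48 against DMSO and -0.54 for the members, and once library medians were set equal the difference of CDC25B was -0.37 (adjusted p = 0.508). Without SKBR7 DMSO replicate I, II or III the adjusted p for CDC25B was 0.100, 0.107 and 0.154, and it was 0.0821 and 0.0522 when co-treatment replicate I or II was left out. In the fit without lapatinib replicate II 4 members were lower than with DMSO, beside 1589 of 21914 genes.

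WEE1 in SKBR7 was 6.05, 6.18 and 6.09 with DMSO, 5.90, 5.32 and 5.94 with lapatinib, 6.10, 6.29 and 6.04 with PHA-767491 and 6.41, 6.62 and 6.76 with co-treatment, above every other SKBR7 library. The difference was 0.49 (SE 0.24, adjusted p = 0.290) from DMSO, 0.88 (SE 0.24, adjusted p = 0.0907) from lapatinib and 0.46 (SE 0.24, adjusted p = 0.515) from PHA-767491. Once library medians were set equal WEE1 passed against DMSO (1.04, adjusted p = 0.0327) and lapatinib (1.04, adjusted p = 0.0256). CDK1 was 7.73, 7.87 and 7.77 with DMSO and 6.86, 7.21 and 7.34 with co-treatment, and CCNB2 was 6.80, 6.62 and 6.63 against 5.51, 6.09 and 6.06. CCNA2, much higher in this line, was 8.61, 8.87 and 8.76 against 8.01, 8.28 and 8.34. For these 3 genes no co-treated library reached a DMSO or PHA-767491 library, yet the differences from DMSO of -0.65, -0.80 and -0.54 missed the threshold (adjusted p of at least 0.129). Libraries did not overlap for 6 members against DMSO (36.3% of all genes), 6 against PHA-767491 (21.3%) and 2 against lapatinib (9.95%).

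Co-treatment replicate I and lapatinib replicate II set much of the SKBR7 spread. Replicate I listed 16232 genes and had CDC25C at 2.26, where replicates II and III had 4.30 and 4.68, and lapatinib replicate II listed 18021 and had CDK1 at 6.51 against 7.87 and 7.76. Without these 2 libraries and with the values as deposited, CDC25B, CDK1, CCNB2 and CCNA2 were lower and WEE1 higher against each comparator. These 5 of 9 members stood beside 12.7% of all genes called in either direction against DMSO, 9.92% against lapatinib and 8.03% against PHA-767491. CDC25B was then -0.74 (SE 0.11), -0.40 (SE 0.12) and -0.39 (SE 0.11) against DMSO, lapatinib and PHA-767491, and WEE1 was 0.58 (SE 0.13), 0.77 (SE 0.14) and 0.55 (SE 0.13). CDK1 was -0.51, -0.54 and -0.40, CCNB2 was -0.61, -0.47 and -0.43, and CCNA2 was -0.44, -0.37 and -0.36. CCNB1 was -0.15, -0.05 and -0.09 with an adjusted p of 0.322, 0.822 and 0.648, and CDC25C and PKMYT1 missed the threshold as well. With the 18 libraries normalised anew the same 5 genes passed in the same directions, and CDC25A was also higher against DMSO (0.28, SE 0.08) and lapatinib (0.28, SE 0.09). In that fit 4 members were lower against DMSO (21.4% of all genes) and 2 higher (21.1%), 4 lower (19.8%) and 2 higher (17.8%) against lapatinib, and 4 lower (19.9%) and 1 higher (18.6%) against PHA-767491.

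Neither drug alone moved a member past the threshold. For lapatinib and for PHA-767491 against DMSO 0% of all genes passed in limma in either line, and no member had an unadjusted p under 0.05. In SKBR7 the differences of the 9 members ran from -0.48 (CCNB2) to -0.16 (CDC25B) with lapatinib, beside a median of -0.39 over all genes, and from -0.34 (CDC25B) to 0.13 (CDC25A) with PHA-767491, beside -0.18. In SKBR7 CDC25B with PHA-767491, at 7.26 to 7.30, did not overlap DMSO at 7.59 to 7.65. It passed where only those 6 libraries were fitted and where the 18 libraries were normalised anew. In Hs578T the differences from DMSO rest on DMSO replicate I. Without the 6 libraries in doubt those of lapatinib were -0.01 for CDC25A, -0.13 for CCNA2 and 0.02 for CCNB1, and no member passed.

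Was co-treatment more than the sum of both drugs? Departure from additivity was taken on the log2 scale, by subtracting the lapatinib and the PHA-767491 differences from the co-treatment difference, all against DMSO. As deposited no gene passed in Hs578T or SKBR7 (0%), with CDC25B at -1.83 (SE 0.40, adjusted p = 0.810) and -0.41 (SE 0.29), and WEE1 in SKBR7 at 0.84 (SE 0.34). These differences of CDC25B in Hs578T and WEE1 in SKBR7 were the 2 with an unadjusted p under 0.05. With the 18 libraries normalised anew, CDC25B (-1.46, SE 0.14), CCNA2 (-0.69, SE 0.16) and CCNB1 (-0.65, SE 0.16) fell below additivity in Hs578T, beside 8.58% of all genes in either direction. In SKBR7 CDK1 (-0.48, SE 0.12) and CCNA2 (-0.35, SE 0.12) passed below additivity and WEE1 (0.65, SE 0.12) above it. Beside them 21.1% of all genes passed in either direction, and CDC25B was at -0.12 (SE 0.12).

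Did the lines differ? In the effect of co-treatment against lapatinib no member passed as deposited (0.0105% of all genes were called in each direction), with CDC25B at -0.79 (SE 0.30) and CCNB1 at -0.81 (SE 0.28) for Hs578T minus SKBR7, an adjusted p of 0.971 for both. The unadjusted p of CDC25B, CCNB1 and CCNA2 was under 0.05. With the 18 libraries normalised anew the difference was more negative in Hs578T for CDC25B (-1.18, SE 0.12, adjusted p = 4.67e-05), CCNB1 (-0.71, SE 0.13, adjusted p = 0.00258) and CCNA2 (-0.51, SE 0.12, adjusted p = 0.0105), beside 15.6% of all genes in either direction. The difference was 0.07 (SE 0.12) for CDK1 and -0.19 (SE 0.15) for WEE1, and neither passed. Under lapatinib itself Hs578T had less CDC25A (-1.17, SE 0.27) and CCNA2 (-0.88, SE 0.20) and more CCNB1 (0.79, SE 0.20) and CDC25B (0.66, SE 0.21) than SKBR7. Of all genes 12.9% were higher and 8.91% lower in Hs578T, and the call for CDC25B (adjusted p = 0.0277) was lost in 4 of the 12 fits that leave out a library, with an adjusted p of up to 0.141. After the 18 libraries were normalised anew, 5 members were higher (32.9% of all genes) and 3 lower (34.4%).

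The balance of activators and inhibitors was read within each library as the mean of the 3 CDC25 genes minus the mean of WEE1 and PKMYT1, which is a description with no test. In Hs578T it was -1.02, -0.89 and -0.92 with co-treatment, against 0.25, 0.50 and 0.32 with lapatinib and -0.22, -0.03 and 0.10 with PHA-767491. DMSO replicate I had -0.60 and the other DMSO libraries 0.21 and 0.31. In SKBR7 co-treatment it was -1.04, -0.18 and -0.13, the first in the library in doubt, while the other SKBR7 groups ran from -0.04 to 0.79. Co-treatment thus had the lowest balance in each line, library by library. The mean of the 3 cyclins minus CDK1 fell to between -0.45 and -0.38 with co-treatment in Hs578T, where lapatinib had -0.10 to 0.01. In SKBR7 it was 0.21 to 0.31 with co-treatment, within the span of the other groups (-0.04 to 0.45).

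**Figure D4:**
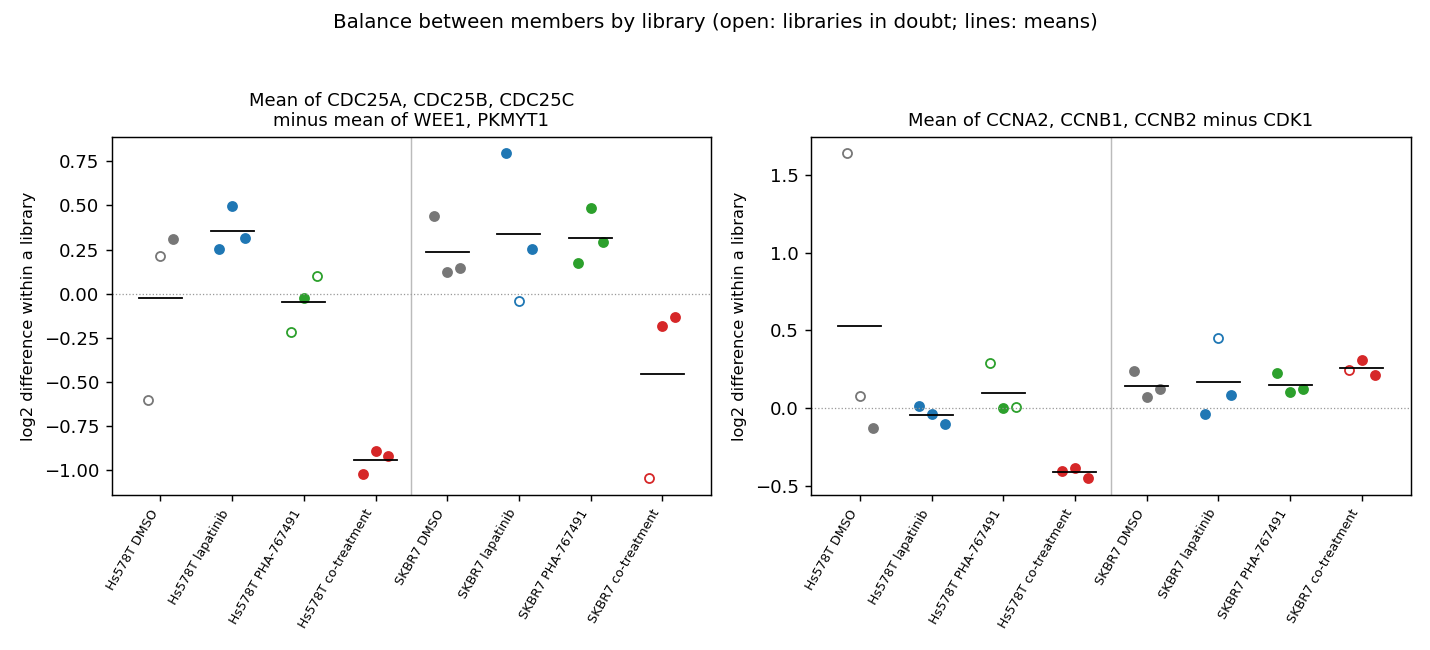
Differences of log2 values within each library (vertical axis), by group, with group means as lines and libraries in doubt as open points. On the left, the CDC25 mean minus the WEE1 and PKMYT1 mean lies between -1.02 and -0.89 in Hs578T co-treatment and between -1.04 and -0.13 in SKBR7 co-treatment. On the right, the cyclin mean minus CDK1 lies between -0.45 and -0.38 in Hs578T co-treatment.

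Levels of different genes were compared after subtracting the log2 length, in kilobases, of the gene's canonical mRNA in GENCODE. In Hs578T lapatinib the order was CCNB1 (7.78), CDK1 (6.83), CDC25B (6.48), CCNB2 (6.22), CCNA2 (6.07), PKMYT1 (4.83), CDC25C (4.25), WEE1 (3.82) and CDC25A (2.98), all as log2 values per kilobase. CCNB2 and CCNA2 differed there by no more than the SD of CCNB2 (0.17). With co-treatment CDC25B (4.94) ranked below CCNB2 (5.37), PKMYT1 (5.31) and CCNA2 (5.23), and WEE1 was at 4.44. In SKBR7 DMSO CCNB1 (7.36) and CCNA2 (7.29) led within their SDs of 0.10 and 0.13, then came CDK1 (6.87), CCNB2 (6.11) and CDC25B (5.98). CDC25A (4.32) and WEE1 (4.26) were also within their SDs there, and CDC25C (3.57) was lowest. CDC25A was last in every Hs578T group and in place 6 to 8 in SKBR7.

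Genes around the switch were counted from 5 lists in Hs578T co-treatment against lapatinib, beside the 11% of all genes lower and 18.3% higher. Of 8 upstream activators, 3 were lower and 1 higher. AURKA, which activates PLK1, was -1.19 (SE 0.11), PLK1, which activates CDC25C and marks WEE1 for degradation, was -0.86 (SE 0.11), and CKS2, a CDK1 subunit, was -0.68. The Greatwall branch restrains the phosphatase that opposes CDK1, and its list of 7 genes also holds subunits of that phosphatase. Of these 7 genes 3 were lower and none higher, a count that mixes both sides. The kinase MASTL and the phosphatase subunit PPP2R2A were both -0.63, and PPP2R2D was -0.59. Of 10 late cell cycle genes 9 were lower, led by the kinase AURKB (-1.24), the topoisomerase TOP2A (-0.82) and HMMR (-0.73). Of 17 genes of checkpoint and turnover 9 were lower and 3 higher. CDC20, which targets cyclin B for destruction, was -1.20 (SE 0.09), CDKN1A, a CDK inhibitor, was -1.11 (SE 0.16), and CHEK1, which restrains CDC25, was -0.80. Of 7 transcription factors and MuvB subunits of G2 none was lower and FOXM1 was 0.26 higher (adjusted p = 0.0211). The medians of these lists, in this order, were 0.00, -0.59, -0.41, -0.30 and -0.07.

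**Figure D5:**
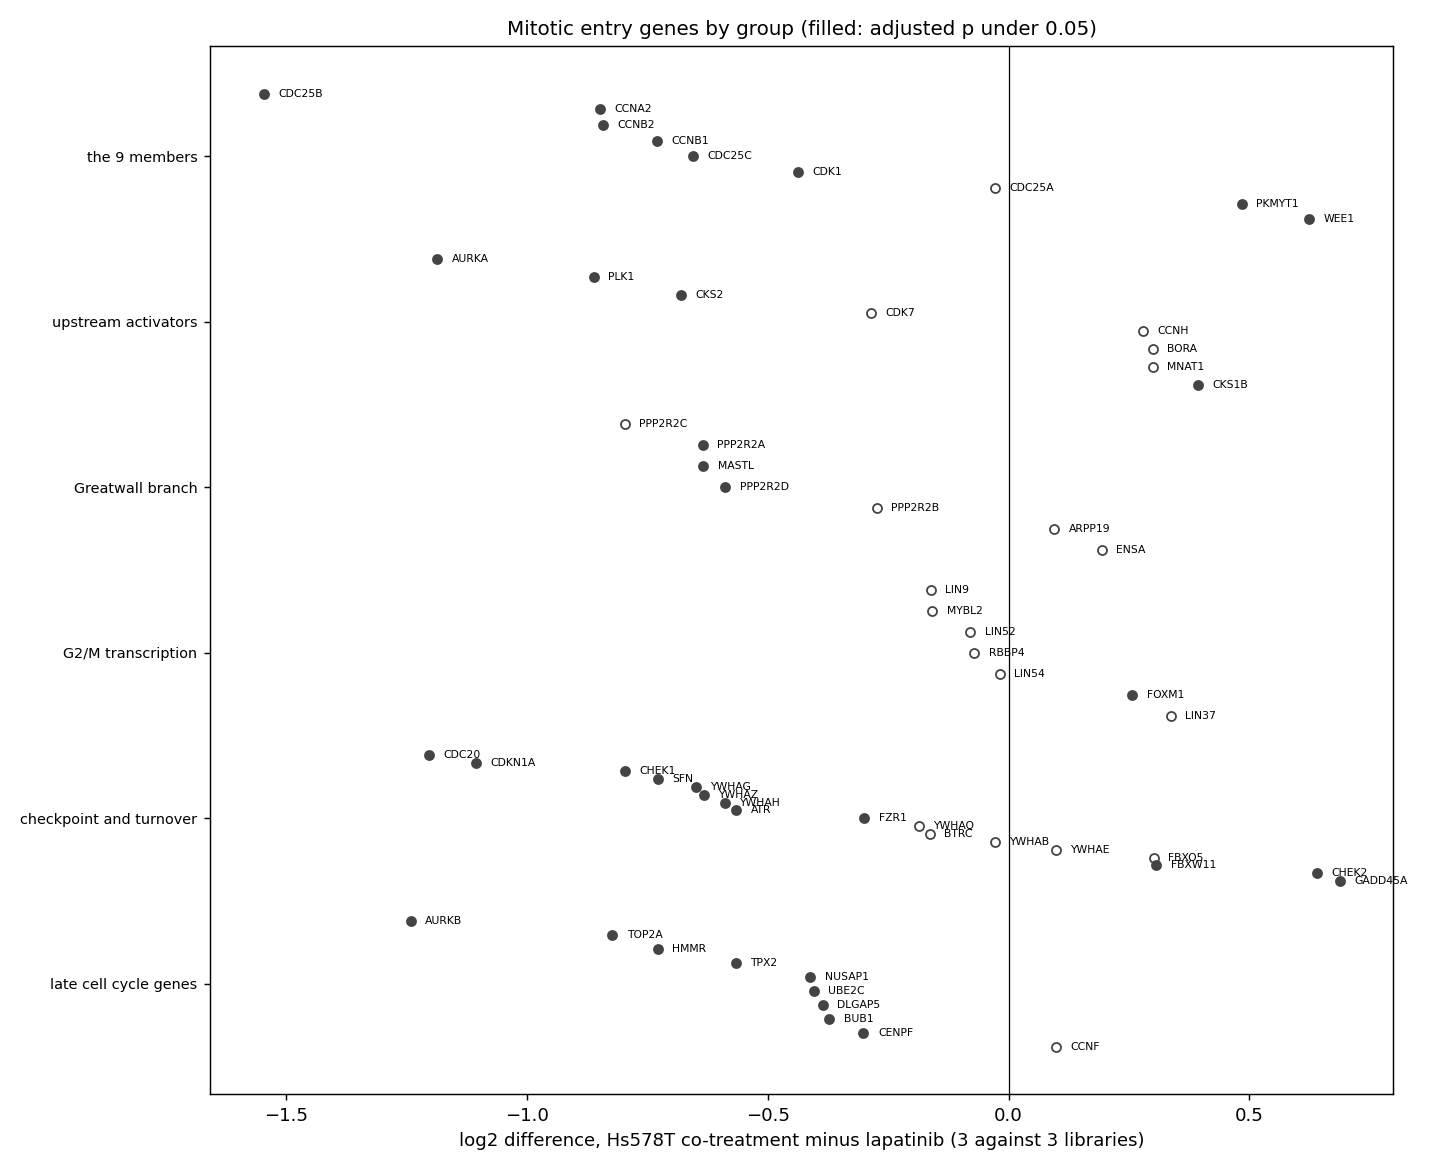
Log2 difference (horizontal axis) of Hs578T co-treatment minus lapatinib, 3 against 3 libraries, for the 9 members and 5 lists of genes around them, with filled points where the adjusted p was under 0.05. Of the late cell cycle genes 9 of 10 are filled below 0, and of the G2/M transcription genes FOXM1 alone is filled, at 0.26.

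In SKBR7 few of these genes passed as deposited. Against DMSO SFN, the sigma form of the 14-3-3 proteins, which holds CDK1 and cyclin B1 in the cytoplasm, was -1.15 (adjusted p = 0.0245) and PPP2R2C was -0.87 (adjusted p = 0.0480), and the others did not pass. Against lapatinib SFN was -1.52 (adjusted p = 0.00251), CDKN1A was 0.81 (adjusted p = 0.00819) and GADD45A, which dissociates CDK1 from cyclin B, was 1.30 (adjusted p = 0.0205). CDKN1A was also 0.98 higher than with PHA-767491 (adjusted p = 0.00403). Without the 2 SKBR7 libraries in doubt SFN was -1.02 against DMSO and -0.97 against lapatinib, PPP2R2C was -0.76 against DMSO, CDKN1A was 0.85 against lapatinib and 1.09 against PHA-767491, and GADD45A was 1.33 against lapatinib, each past the threshold. Late cell cycle genes had medians of -0.37, -0.05 and -0.29 against DMSO, lapatinib and PHA-767491, and none of the 10 passed. After the 18 libraries were normalised anew, late cell cycle genes had 3 of 10 lower and 1 higher against DMSO, 3 and 2 against lapatinib and 5 and 1 against PHA-767491, and AURKB was lower in all 3 (-0.69, -0.74 and -0.43). Genes of the Greatwall list, phosphatase subunits included, had 4 of 7 lower and 1 higher, 3 and 0, and 4 and 0 against the same groups. Upstream activators had 3 of 8 lower and 2 higher, 1 and 1, and 2 and 1. Checkpoint and turnover genes had 4 of 17 lower and 4 higher, 6 and 4, and 6 and 3, and the transcription factors and MuvB subunits had 1 of 7 lower and 1 higher, 0 and 0, and 1 and 0. In that fit 19.8% to 21.4% of all genes were lower and 17.8% to 21.1% higher.

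The genes with a pattern most like the mean of CDK1, CCNB1, CCNB2 and CCNA2 were CHEK1, HSPA8, PPP2R2A, CKS2 and MMADHC. Pearson's r was 0.98 for each over the 18 libraries not in doubt, after centring each library on its median and each gene within a line, among 14104 genes. These libraries share 4 treatments in each line, so r is a description. By the same measure CDC25B had 0.92, CDC25C 0.86, CDC25A 0.21, WEE1 -0.59 and PKMYT1 -0.58. The genes most like CDC25A were PLK2 (0.90), FAM60A (0.89), RRP1B (0.87), NUDCD1 (0.85) and QTRTD1 (0.85), and no other member reached more than 0.39.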

How the data were processed

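RNA of 24 libraries was sequenced after a stranded poly(A) preparation. The authors counted read pairs per gene with featureCounts 1.4.6 on Ensembl release 84 (GRCh38), scaled them with edgeR TMM factors, quantile normalised them and deposited log2 values, with blanks where a library lists no value. The aligner is HiSat2 2.2.0.4 by the submitters' processing notes and another by the study's methods. A table of group averages and their differences, the authors' own comparisons, was not used. Of 36517 lines, 36 with a repeated identifier were left out.

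The test was limma 3.58.1, run in R 4.3.3 (variance trend, two-sided, Benjamini-Hochberg over all genes tested, threshold 0.05). A gene needed a value in at least 3 libraries and in every group compared. Hs578T co-treatment against lapatinib used the 6 libraries of those groups, the line comparisons the 12 lapatinib and co-treatment libraries, and the others the 12 libraries of a line. The choice of 6 libraries was made because earlier results had shown the spread of Hs578T DMSO and PHA-767491. The 9 members, the lists and the libraries in doubt were chosen with earlier results of these data known. All members are named, and from each list up to 3 genes past the threshold with the largest change. Read totals are not given in the sources used here, so precision is known only from the spread between libraries. Alternatives were a stricter filter and none, a replicate block, centring on medians, no variance trend, other sample sets, each library left out, and the 18 libraries not in doubt normalised anew. A fit without the 2 SKBR7 libraries in doubt was added after seeing the data. Promoter windows are those of RefSeq on GRCh38.p14, matched by symbol.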

Additional observations from a re-analysis of the deposited data

Results flagged for a closer look

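CDKN1A, which encodes the CDK inhibitor p21, differed between the lines in its response to co-treatment. In Hs578T it was 5.88, 5.65 and 5.81 with lapatinib and 4.70, 4.81 and 4.52 with co-treatment, all lower. In SKBR7 it was 8.58, 8.62 and 9.13 with lapatinib and 9.35, 9.61 and 9.80 with co-treatment, all higher. The difference of the 2 effects was -1.92 on the log2 scale (limma, adjusted p = 0.0148), and -2.02 with the 18 libraries not in doubt normalised anew. In the Hs578T libraries that list many SKBR7-marking genes CDKN1A was 7.67 for DMSO replicate II and 7.93 for replicate III of PHA-767491, and these enter neither effect.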

How the results depend on the processing

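Of 2340 member differences under alternatives, 2107 kept direction and side of the threshold, 80 newly passed, 29 no longer passed and 124 changed direction. The cause was not tested. With the 18 libraries not in doubt normalised anew, Hs578T kept 1 DMSO and 1 PHA-767491 library. Counts for additivity and against these 2 groups in Hs578T are therefore left out here. In SKBR7, 4 members were lower (21.4% of all genes) and 2 higher (21.1%) against DMSO. Against lapatinib 4 were lower (19.8%) and 2 higher (17.8%), and against PHA-767491 4 lower (19.9%) and 1 higher (18.6%). For additivity 2 were lower and 1 higher (21.1% in either direction), and 1 was lower for PHA-767491 alone. The line difference then had 3 lower, beside 15.6% of all genes in either direction. Hs578T against SKBR7 had 5 higher and 3 lower, beside 32.9% and 34.4% of all genes. Without the 2 SKBR7 libraries in doubt, 4 were lower and 1 higher in each SKBR7 co-treatment comparison. Of all genes 12.7%, 9.92% and 8.03% were then called in either direction against DMSO, lapatinib and PHA-767491. With library medians set equal, SKBR7 had 0 lower and 1 higher against DMSO and 1 higher against lapatinib, and Hs578T against SKBR7 had 1 higher. Without the variance trend, 0 were higher in Hs578T co-treatment against lapatinib, 0 lower in SKBR7 co-treatment against DMSO, and 0 higher and 1 lower in Hs578T against SKBR7. All 12 Hs578T libraries gave 0 in both directions against lapatinib. Fitting only 6 libraries gave 3 lower in SKBR7 against DMSO, 1 lower against PHA-767491 and 1 lower for PHA-767491 alone. Genes listed in every library gave 1 lower and 1 higher in SKBR7 against lapatinib. Over the alternatives, the genes called lower in SKBR7 co-treatment ran from 0 to 2616 against DMSO and from 0 to 2418 against lapatinib. They ran from 0 to 2422 against PHA-767491, and from 0 to 413 for PHA-767491 alone. Counts of members given without a share of all genes are therefore not a result about the members alone.

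The 124 changes of direction follow. Of these, 0 had passed the threshold as deposited, and 4 passed under the alternative. With the 18 libraries normalised anew, the values that changed sign were, in Hs578T lapatinib against DMSO CDC25A -0.014, CCNA2 -0.13, CDK1 -0.10 and WEE1 -0.091, in Hs578T PHA-767491 against DMSO CDC25A -0.057, CCNA2 -0.20, CCNB1 -0.11, CDC25C -0.041, CDK1 -0.38, CCNB2 -0.46 and CDC25B -0.13, in Hs578T co-treatment against DMSO CDC25A -0.13, CDC25C -0.50, CDK1 -0.57 and CCNB2 -0.83. Others were, in Hs578T co-treatment against PHA-767491 CDC25C -0.46, in Hs578T additivity WEE1 0.47 and PKMYT1 -0.014, in SKBR7 lapatinib against DMSO CDC25A 0.0075, CDC25C 0.29 and CDK1 0.075. Others were, in SKBR7 co-treatment against DMSO CDC25C 0.011, in SKBR7 co-treatment against lapatinib CCNB1 -0.058 and PKMYT1 0.25, in SKBR7 co-treatment against PHA-767491 CDC25A 0.084. Others were, in SKBR7 additivity CCNB1 -0.055, in the line difference CDC25C -0.45 and CDK1 0.068, in Hs578T against SKBR7 CDK1 -0.055.

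With library medians set equal, the values that changed sign were, in Hs578T lapatinib against DMSO CCNA2 -0.30, CCNB1 -0.64, CCNB2 -0.098, PKMYT1 -0.91 and CDC25B -0.50, in Hs578T PHA-767491 against DMSO CCNA2 -0.13, CCNB1 -0.95, CDK1 -0.14, CCNB2 -0.63, PKMYT1 -0.80 and CDC25B -0.71, in Hs578T co-treatment against DMSO CDK1 -0.27, CCNB2 -0.999 and PKMYT1 -0.48. Others were, in Hs578T co-treatment against PHA-767491 CDC25C -0.12, in Hs578T additivity CCNB1 0.16, in SKBR7 lapatinib against DMSO CDC25A 0.21, CCNA2 0.054, CCNB1 0.016, CDC25C 0.16, PKMYT1 0.20 and CDC25B 0.23. Others were, in SKBR7 PHA-767491 against DMSO CCNA2 0.074, CCNB1 0.093 and CDK1 0.041, in SKBR7 co-treatment against DMSO CCNA2 0.0080, CCNB1 0.26 and PKMYT1 0.29, in SKBR7 co-treatment against lapatinib PKMYT1 0.098. Others were, in SKBR7 co-treatment against PHA-767491 CDC25A 0.36 and CCNB1 0.17, in the line difference CDC25C -0.22. Without the 2 SKBR7 libraries in doubt, they were, in SKBR7 co-treatment against lapatinib CCNB1 -0.053 and PKMYT1 0.31, in SKBR7 co-treatment against PHA-767491 CDC25A 0.088.

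Ranges over the fits that leave out 1 library, for differences that changed sign in any of them, were as follows. Hs578T lapatinib against DMSO had CDC25A -0.23 to 4.10, CCNA2 -0.38 to 1.45 and PKMYT1 -0.0032 to 0.35. Hs578T PHA-767491 against DMSO had CCNA2 -0.28 to 1.56, CCNB1 -0.17 to 0.32, CDC25C -0.010 to 3.75, CDK1 -0.39 to 1.56 and CCNB2 -0.35 to 0.83. Hs578T co-treatment against DMSO had CDC25A -0.26 to 4.08, CCNA2 -1.23 to 0.60, CDK1 -0.39 to 1.55 and CCNB2 -0.59 to 0.58. Hs578T co-treatment against lapatinib had CDC25A -0.11 to 0.091. Hs578T co-treatment against PHA-767491 had CDC25C -0.40 to 0.26 and CDK1 -0.36 to 0.26. Hs578T additivity had WEE1 -4.60 to 0.21. SKBR7 lapatinib against DMSO had CDC25C -0.44 to 0.15, CDK1 -0.66 to 0.022, PKMYT1 -0.56 to 0.37 and CDC25B -0.34 to 0.025. SKBR7 PHA-767491 against DMSO had CDC25C -0.095 to 0.14 and WEE1 -0.040 to 0.087. SKBR7 co-treatment against DMSO had CDC25A -0.0067 to 0.21. SKBR7 co-treatment against lapatinib had CCNB1 -0.19 to 0.23, CDC25C -1.13 to 0.083, CDK1 -0.68 to 0.0058 and PKMYT1 -0.63 to 0.31. SKBR7 co-treatment against PHA-767491 had CDC25A -0.13 to 0.088 and PKMYT1 -0.067 to 0.20. SKBR7 additivity had CCNA2 -0.39 to 0.0058, CCNB1 -0.13 to 0.29, CDC25C -1.14 to 0.071, CDK1 -0.56 to 0.12, CCNB2 -0.48 to 0.045 and PKMYT1 -0.29 to 0.64. The line difference had CDC25C -0.74 to 0.47 and CDK1 -0.44 to 0.24. Hs578T against SKBR7 had CDK1 -0.063 to 0.62, WEE1 -0.26 to 0.045 and PKMYT1 -0.27 to 0.66.

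Leaving out each library in turn gave 0 to 4 members lower in SKBR7 co-treatment against DMSO, 0 to 2 against lapatinib and 0 to 3 against PHA-767491, while the genes called lower ran from 64 to 1783, from 68 to 565 and from 14 to 633. In Hs578T it gave 0 to 2 lower and 0 to 1 higher against DMSO, 0 to 1 lower against PHA-767491, 1 to 2 higher and 6 lower against lapatinib, 0 to 1 lower for additivity, and 0 to 2 higher for lapatinib against DMSO. Hs578T against SKBR7 had 1 to 3 higher, beside 1802 to 3633 genes. In Hs578T co-treatment the genes called lower ran from 0 to 100 against DMSO and from 0 to 148 against PHA-767491. Against lapatinib 1875 to 2795 were lower and 2688 to 4733 higher, and 0 to 216 were lower for additivity. Genes called higher ran from 0 to 6365 for co-treatment and from 0 to 5205 for lapatinib, both against DMSO. Without SKBR7 lapatinib replicate II, CDC25B, CDK1, CCNB2 and CCNA2 were lower than with DMSO, beside 1589 of 21914 genes.

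The replicate block changed no count of members called, with 6 lower and 2 higher in Hs578T co-treatment against lapatinib and 1 lower in SKBR7 co-treatment against DMSO. Same-numbered deviations correlated over 0.1 in 5 of 18 pairs in each line. Their r ran from -0.45 to 0.37 in Hs578T and from -0.38 to 0.59 in SKBR7. With 3 libraries in a group, this cannot settle whether the numbers pair the samples. Read depth is unknown, and low values cannot be told from sampling noise.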
